A study of Mus musculus with 8 samples.

Results

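The regions described here are stretches of open chromatin in mouse liver. In peak lists cut to equal length, they had a peak in both double knockout libraries and in no other library. They come from an ATAC-seq study, which reads accessible DNA through the sites a transposase can reach, of C57BL/6 male mice at 9 weeks of age after a 24 h fast. The 8 libraries comprised 2 each of wild type, Cpt2 L-/- (a knockout in the liver), Ppara -/- (in the whole body) and Cpt2 L-/- ; Ppara -/-, called double knockout here. The promoter behind the liver deletion of Cpt2 and the stretches removed from both genes are not given in the sources used here, no group was left unfasted, and nothing states that the 2 libraries of a genotype came from separate animals. The members were chosen by the deposited −log10 p of the peaks. In each library the strongest peaks were kept, as many as the shortest of the 8 lists holds. The shortest is that of double knockout 2, so all of its peaks were kept, weak ones included. A consensus region counted as called where it shared at least 1 base with a kept peak. Of the 49587 consensus regions, 361 (0.728%) were called in both double knockout libraries and in none of the other 6. These 361 regions are the members. All of their peak values were used to choose them, so those values are a description and carry no test.

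Cpt2 encodes the carnitine palmitoyltransferase of the inner mitochondrial membrane, without which long-chain fatty acids cannot be oxidised in mitochondria. Ppara encodes a nuclear receptor that binds fatty acids, pairs with the retinoid X receptor and switches on genes of fatty acid oxidation and ketone body synthesis in the fasted liver. In the double knockout the hepatocyte lacks both the oxidation step and this sensor. An ATAC-seq peak marks a promoter, an enhancer or another stretch with few nucleosomes, and does not by itself tell which gene it acts on.

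The sequences at hand were those of promoters, taken from RefSeq on GRCm38.p6, the assembly of mm10. Each covers 250 bases before to 50 bases after a listed gene start. Such a window was overlapped by 24 members, of which 19 lay at the windows of 21 protein-coding genes and the rest at windows of lncRNA genes alone. The windows below show the coding gene start with the strongest member (Ajuba), the start in an antioxidant list (Nqo1), the stronger of the 2 starts whose member had no peak in any other library (Csrnp1), and both starts with an AP-1 motif (Cnksr1, Cgref1). Starts were listed for 17492 protein-coding genes, fewer than the 21887 used for nearest genes, so a stronger member may lie at an unlisted start. The windows were chosen among listed starts after their values were seen. Each is printed 5′ to 3′ on the strand of its gene, and capitals mark a match to a motif searched for.
Ajuba (chr14:54577612-54577911, minus strand): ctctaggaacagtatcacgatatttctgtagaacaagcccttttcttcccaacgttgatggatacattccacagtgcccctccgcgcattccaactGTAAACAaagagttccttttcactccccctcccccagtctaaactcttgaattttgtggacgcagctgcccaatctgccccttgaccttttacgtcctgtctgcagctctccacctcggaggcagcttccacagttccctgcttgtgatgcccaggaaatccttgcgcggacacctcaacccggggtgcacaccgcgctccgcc
Nqo1 (chr8:107403156-107403455, minus strand): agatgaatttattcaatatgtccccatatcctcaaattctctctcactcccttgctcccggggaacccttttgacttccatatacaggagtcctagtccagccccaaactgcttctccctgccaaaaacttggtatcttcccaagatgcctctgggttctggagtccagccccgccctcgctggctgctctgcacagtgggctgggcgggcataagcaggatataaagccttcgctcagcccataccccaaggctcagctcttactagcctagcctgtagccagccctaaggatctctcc
Csrnp1 (chr9:119984693-119984992, minus strand): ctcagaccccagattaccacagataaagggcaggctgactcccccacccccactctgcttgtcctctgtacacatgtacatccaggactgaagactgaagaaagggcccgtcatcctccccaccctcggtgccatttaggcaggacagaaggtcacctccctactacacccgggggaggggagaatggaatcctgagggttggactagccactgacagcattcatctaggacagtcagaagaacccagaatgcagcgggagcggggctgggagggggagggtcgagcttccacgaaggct
Cnksr1 (chr4:134238350-134238649, minus strand): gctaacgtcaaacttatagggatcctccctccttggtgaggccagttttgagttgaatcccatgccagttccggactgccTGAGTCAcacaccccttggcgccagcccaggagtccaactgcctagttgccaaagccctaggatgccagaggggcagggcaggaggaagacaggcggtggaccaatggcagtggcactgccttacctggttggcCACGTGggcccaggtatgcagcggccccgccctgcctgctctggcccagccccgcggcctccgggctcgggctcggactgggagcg
Cgref1 (chr5:30945431-30945730, minus strand): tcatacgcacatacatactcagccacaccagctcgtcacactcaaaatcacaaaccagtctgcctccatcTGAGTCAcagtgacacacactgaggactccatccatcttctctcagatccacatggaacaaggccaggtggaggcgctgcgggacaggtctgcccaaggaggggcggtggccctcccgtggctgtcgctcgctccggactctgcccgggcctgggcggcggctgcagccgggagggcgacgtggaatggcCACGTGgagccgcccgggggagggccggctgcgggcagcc

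At Nqo1, a quinone reductase of the antioxidant response, the summits of the double knockout peaks lay at 2 and -5 bases from the gene start. At Csrnp1 they lay at -8 and -19 bases from the start of the window shown, and at -307 and -318 bases from a second listed start of that gene. At Ajuba, a LIM-domain scaffold protein, the summits lay inside the gene, at 99 and 67 bases. At Cnksr1, a scaffold of Ras signalling, they lay at -86 and -100 bases, and at Cgref1 at -99 and -43 bases. The AP-1 motif began 170 bases before the start of Cnksr1 and 180 bases before that of Cgref1, and each window also held an E-box, 36 bases before the start of Cnksr1 and 10 bases after that of Cgref1.

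Motifs were searched on both strands in the windows of the 21 genes and of all 17492 protein-coding genes in the table. The AP-1 motif TGACTCA was present in 2 of the 21 (Cgref1 and Cnksr1) and in 5.4% of all genes. The forkhead motif TGTTTAC was present in 2 (Ajuba and Spats2l) and in 3.45% of all. Both forkhead matches lay outside the member regions, which cover 147 bases of the Ajuba window and 239 of the Spats2l window. The E-box CACGTG was present in 4 (Cgref1, Cnksr1, Dpp7 and Ppfia4) and in 8.91%, the ETS motif GGAAGTG in 1 (Sft2d1) and in 13.7%, and the ATF4 composite TGATGCAA in 1 (Slc17a1) and in 1.01%. The C/EBP palindrome TTGCGCAA, the CRE TGACGTCA, the HNF4 motif CAAAGTCCA, the antioxidant core TGACTCAGC and a direct repeat of AGGTCA with 1 base between the copies were in none of the 21. They occurred in 0.246%, 2.54%, 0.52%, 0.475% and 0.0572% of all genes. TGACTCAGC contains TGACTCA, so those searches overlap. The median GC content was 61.5% over the 24 coding windows of members and 56.3% over all 21263. These are matches of letters in 300-base windows, and most members lie elsewhere in the genome, where no sequence was used here.

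The lists differed in length, the longest holding 39296 peaks and the shortest that of double knockout 2, so the same list length meant a different cutoff in each. The last kept peak had a −log10 p of 21.8 and 36.6 in the wild type libraries and of 37.9 and 31.8 in the Cpt2 knockouts. It was 12.8 and 9.27 in the Ppara knockouts and 14.6 and 7.77 in the double knockouts. A peak of a −log10 p of 20 was therefore kept in the 4 libraries without Ppara and left out in the 4 with it. The first peak left out was at 21.8 and 36.6 in wild type, at 37.9 and 31.8 in Cpt2 knockout, at 12.8 and 9.27 in Ppara knockout and at 14.6 in double knockout 1, while every peak of double knockout 2 was kept. No read totals were at hand, so the depth of each library is unknown. The number in the deposited peak names, whose meaning is not given, was 441 to 4717 in libraries with Ppara and 6831 to 6834 in those without, and cannot be told apart from Ppara status. As a check of the tissue, all 7 hepatocyte genes with a listed promoter had it called in 4 or more of the 8 libraries, in each of the 8 libraries for Apoa1, Serpina1a and Hnf4a. None of 9 macrophage, 8 stellate and 7 lymphocyte promoters was called in any library. Of 6 endothelial promoters, Kdr was called in double knockout 2, and of 5 cholangiocyte promoters, Pkhd1 was called in 5 libraries.

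Whether the members had a weaker peak in the other genotypes was read from the peaks below the kept lists. No deposited peak of any rank lay at 75 members (20.8%) in the other 6 libraries, and 286 had a lower-ranked peak in at least 1 of them. Such a peak was present at 106 and 155 members in the wild type libraries, at 205 and 216 in the Cpt2 knockouts, and at 40 and 1 in the Ppara knockouts. Of all regions not called in a library, a lower-ranked peak was present for 32.3% and 55.6% in wild type, 65% and 54.9% in Cpt2 knockout, and 6.27% and 0.412% in Ppara knockout. The members' shares were 29.4% and 42.9%, 56.8% and 59.8%, and 11.1% and 0.277%. Ppara knockout had the lowest shares in both sets, so its low share describes the lists as well as the members. The Ppara knockout lists hold 2208 and 151 peaks below the kept ones, so a weak peak had little room to appear there.

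**Figure D1:**
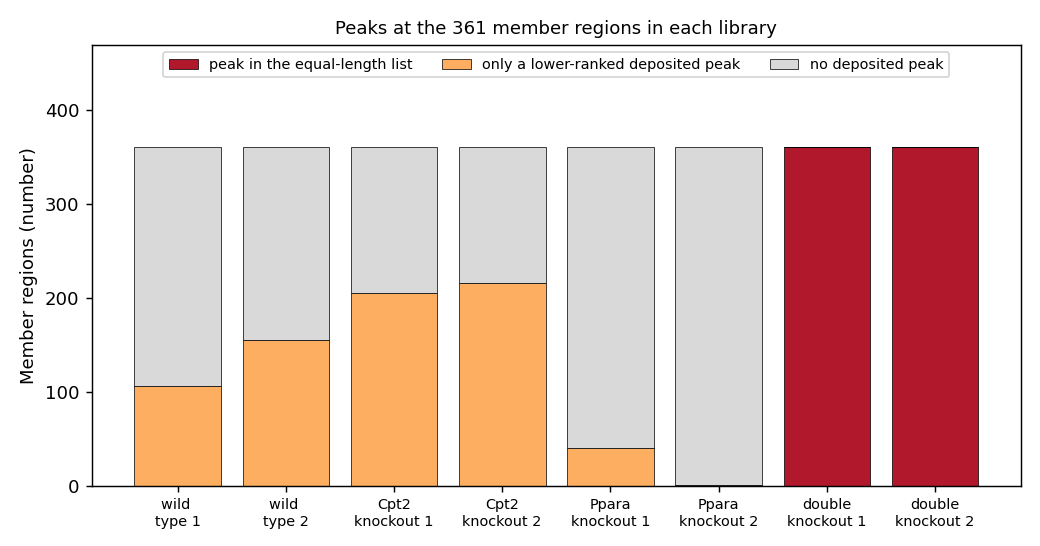
Each bar is 1 library and counts the 361 members (vertical axis) by whether a peak of the equal-length list, a lower-ranked peak or no peak of the file overlapped them. The 2 Ppara knockout libraries have a lower-ranked peak at 40 and 1 members, and the 2 Cpt2 knockout libraries at 205 and 216.

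Grouped by genotype, 266 members had a lower-ranked peak in at least 1 Cpt2 knockout library and 155 in both. In wild type the counts were 178 and 83, and in Ppara knockout 40 and 1. As shares of the members these were 73.7% and 42.9%, 49.3% and 23%, and 11.1% and 0.277%. Over the 21893 regions called in none of the other 6 libraries, members included, the shares were 76.4% and 27.5% in Cpt2 knockout, 55.3% and 13.2% in wild type, and 3.62% and 0.0411% in Ppara knockout. The most frequent pattern, with 139 members (38.5%), was a lower-ranked peak in wild type and Cpt2 knockout but not in Ppara knockout, close to the 38.1% of those 21893 regions. A further 94 (26%, against 36.1%) had one in Cpt2 knockout alone, 26 (7.2%, against 1.71%) in all of the other genotypes and 13 (3.6%, against 15.3%) in wild type alone. The 75 members without any such peak were 20.8%, against 6.91%. Of the 21893 regions, however, only the 361 members were called in both double knockouts. Where a consensus region stems from a peak of these libraries, one without a double knockout peak must have it elsewhere. The 6.91% is thus kept low by the choice of regions, and the gap was not tested. The remaining members had a lower-ranked peak in Ppara knockout. Of them, 7 (1.94%, against 1.18% of the 21893) had it in that genotype alone and 7 (1.94%, against 0.539%) also in Cpt2 knockout. When 1 cutoff of −log10 p, the 14.6 at which the kept list of double knockout 1 ends, was set for every library, 245 members passed in both double knockouts. Of these, 170 also passed in at least 1 other library and 75 in none, 53 of the latter being among those without any peak elsewhere. At this cutoff 65 and 131 members passed in wild type, 170 and 180 in Cpt2 knockout, and 0 in either Ppara knockout. That 0 was fixed by the rule. Members have no kept peak in Ppara knockout, and those kept lists end at 12.8 and 9.27, below the cutoff. The wild type and Cpt2 knockout kept lists end above it, so lower-ranked peaks could pass there. These counts therefore do not compare Ppara knockout with the other genotypes. The name "only in double knockout" therefore holds for lists of equal length. With 1 cutoff or with all deposited peaks it holds for a minority of the members. The values of different lists were not normalised to each other by a method stated in the sources used here.

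The same rule was applied to each genotype. It gave 361 regions in double knockout (0.728% of the 49587), 253 in Ppara knockout (0.51%), 140 in Cpt2 knockout (0.282%) and 137 in wild type (0.276%). With all deposited peaks the order was another: 123 in double knockout (0.248%), 32 in Ppara knockout (0.0645%), 1333 in Cpt2 knockout (2.69%) and 188 in wild type (0.379%). Of the 123, 75 were members. Without any peak elsewhere were 20.8% of the double knockout regions, 7.51% of the Ppara knockout ones (19 regions), 2.14% of the Cpt2 knockout ones (3 regions) and none of the 137 wild type ones. These counts move with list length by construction, and no test of the difference was made.

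**Figure D2:**
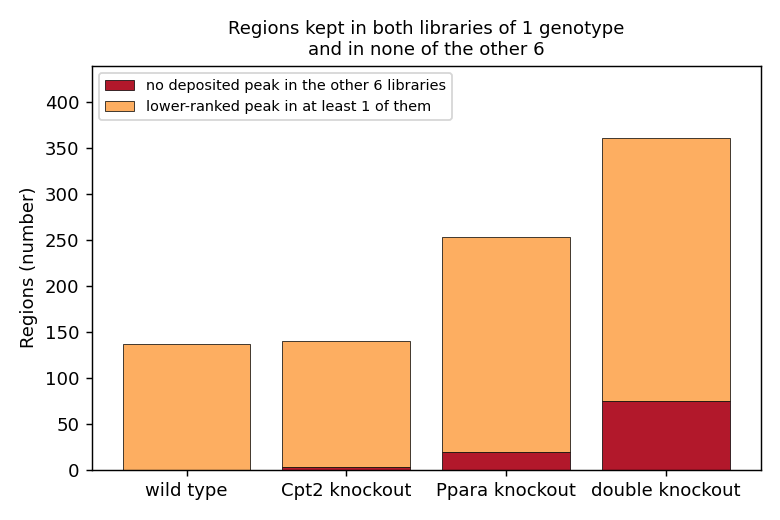
Bars count the regions called in both libraries of 1 genotype and in none of the other 6 (vertical axis), divided by whether any lower-ranked peak was deposited elsewhere. Double knockout has 361 regions, 75 of them without a peak elsewhere, and Ppara knockout 253 and 19.

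Agreement between the 2 double knockout libraries was limited. Setting the other double knockout library aside, 1095 regions were called in double knockout 1 and in none of the other 6 libraries, and 1589 in double knockout 2. The 361 members are 33% of the former and 22.7% of the latter. In Ppara knockout the corresponding shares were 22.5% and 14.4%, in Cpt2 knockout 23.9% and 18.1%, and in wild type 24.4% and 22.8%. Where both libraries called a member, the summits lay a median of 26 bases apart, and 270 of 361 (74.8%) were within 50 bases. For the 13761 other regions called in both double knockouts the median was 25 bases and the share 71.6%. Both peaks had to overlap the same region, which limits the gap. The median region width was 342 bases for members and 582 for the others, so these shares do not measure agreement on equal terms.

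The members were weaker than most double knockout peaks. In double knockout 1 their −log10 p had a median of 18.4 (14.6 to 49.6), against 31.5 for the other regions called in both double knockouts. In double knockout 2 the medians were 16.6 (8.52 to 60.8) and 24.8. The deposited fold, the pileup at the summit over the local background, had medians of 5.69 and 5.34 for the members and of 7.22 and 6.5 for the others. Expressed as a percentile of the kept list, where 100 is the strongest peak, members had medians of 20.8 in double knockout 1 and 33 in double knockout 2. Their mean percentile over both libraries ran from 1.49 to 79.6 with a median of 28.9, and 44 members (12.2%) exceeded 50. Ranks of the 2 libraries were loosely related across members (Pearson's r = 0.367, Spearman's rho = 0.349, n = 361 regions), and the median difference was 16.1 percentile points. The 10359 other regions within the members' range of mean percentile gave 0.487 and 0.499. These coefficients are across regions of the same 2 libraries, and regions are not replicates.

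**Figure D3:**
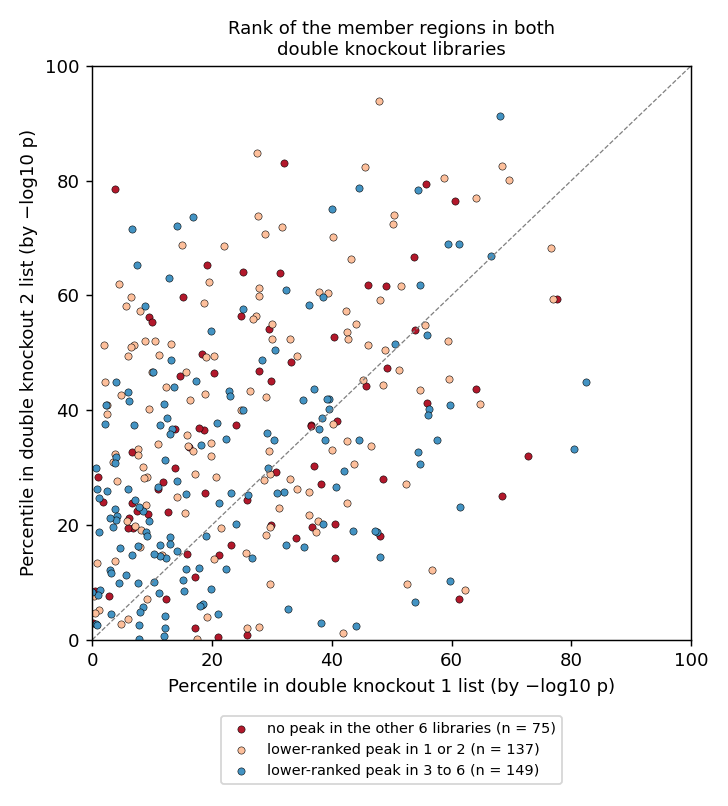
Each point is a member, placed by its percentile in the equal-length lists of double knockout 1 (horizontal) and double knockout 2 (vertical), and coloured by how many of the other 6 libraries had a lower-ranked peak there. Most points lie in the lower left, with medians of 20.8 and 33, and the 75 members without a peak elsewhere are spread among the rest.

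The member with the highest mean percentile (79.6) lay on chromosome 4 at 116097199 to 116097606 (mm10), inside Rad54l, an ATPase of homologous recombination repair, and 90 bases from an end of Lrrc41. Its −log10 p was 35.5 and 53.2 in the double knockouts, 12.4 and 16.4 in the Cpt2 knockouts and 11.8 in Ppara knockout 1. Wild type and Ppara knockout 2 had no peak there. The double knockout values were thus the highest, and a smaller peak was present in 3 libraries of 2 other genotypes.

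The fifth member was inside Acadm (chromosome 3, 153932427 to 153932838), the medium-chain acyl-CoA dehydrogenase that opens mitochondrial oxidation of medium-chain fatty acids and a known Ppara target. Its −log10 p was 25.8 in double knockout 1 and 60.8 in double knockout 2, and the peak in Cpt2 knockout 2 reached 26.4. The lists of the other 5 libraries hold no peak there. The 2 double knockouts differed widely here (percentiles of 47.9 and 93.9), and the weaker of them was close to the Cpt2 knockout value.

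Several of the strongest members carried peaks in Cpt2 knockout alone among the other genotypes. Inside Fbxw7 (chromosome 3, 84935749 to 84936104), the substrate receptor of a ubiquitin ligase, the −log10 p was 30.3 and 36.7 in the double knockouts and 31.3 in Cpt2 knockout 2, which lay 244 places below its kept list. Inside Sec16a (chromosome 2, 26423047 to 26423522), a scaffold of endoplasmic reticulum exit sites, it was 33.2 and 33.8, with 10.8 and 25.1 in the Cpt2 knockouts. At 14042 bases from Kank1 (chromosome 19, 25222270 to 25222690), an adaptor between adhesions and the cytoskeleton, it was 36.6 and 36.4, with 20.3 and 27.9 in the Cpt2 knockouts. The second strongest member, 6288 bases from the predicted gene Gm21149 (chromosome 5, 15482824 to 15483192), had 35.8 and 38.9, with 17.7 in Cpt2 knockout 2. In these 4 regions no wild type or Ppara knockout library had a peak.

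Other strong members had peaks in wild type and Cpt2 knockout. At 29788 bases from Adcy2 (chromosome 13, 69029388 to 69029775), an adenylate cyclase, the −log10 p was 42.3 and 28.2 in the double knockouts, 12.4 in wild type 2 and 16.6 in Cpt2 knockout 1. Inside Hcrtr2 (chromosome 9, 76237177 to 76237518), an orexin receptor, it was 42.7 and 24.2, with 21.2 in wild type 2 and 15.8 in Cpt2 knockout 2. Inside Cflar (chromosome 1, 58720088 to 58720438), an inhibitor of caspase-8, it was 34.7 and 27.5, with 13 in wild type 2 and 15.2 and 18.4 in the Cpt2 knockouts. In each of these 3 the double knockout values were the highest deposited, and both Ppara knockout libraries were without a peak.

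The strongest members without a peak in any of the other 6 libraries were a mixed group. Inside the predicted gene Gm7247 (chromosome 14, 51519278 to 51519605) the −log10 p was 43.4 and 24.2. At 129955 bases from Pdgfra (chromosome 5, 75328161 to 75328515), a receptor of platelet-derived growth factor, it was 31.3 and 33.4. At 424 bases from Ahcyl1 (chromosome 3, 107696984 to 107697370), which binds the IP3 receptor, it was 28.9 and 35.7. Inside Washc5 (chromosome 15, 59338435 to 59338803), a subunit of the WASH complex, it was 28.1 and 27.4, and 554 bases from Unk (chromosome 11, 116027757 to 116028062), an RNA-binding protein, it was 21 and 39.6. The last, 30887 bases from LOC665918 (chromosome Y, 144819 to 145125), had 26.1 and 25.1. Reads in families of near-identical copies, which predicted genes such as Gm7247, Gm21149 and LOC665918 may belong to, can be placed among the copies in ways not given in the sources used here.

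**Figure D4:**
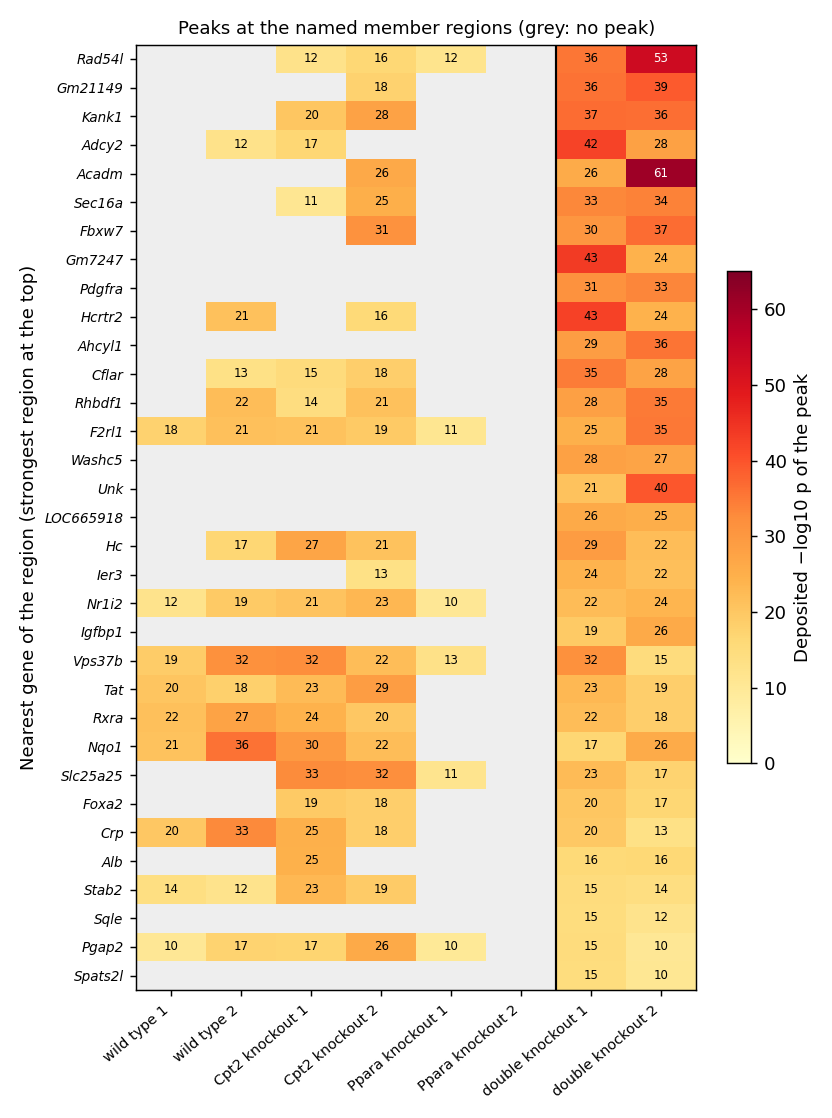
Rows are the 33 members named by rule, labelled by nearest gene and ordered by mean percentile. Columns are the 8 libraries, and numbers and colour give the deposited −log10 p, with grey for no peak. Ppara knockout 2 is empty in every row shown, and many rows below the first 20 carry values in wild type and Cpt2 knockout as high as those in double knockout.

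Near gene ends, the strongest members after Rad54l and Ahcyl1 included Rhbdf1 (chromosome 11, 32220950 to 32221713), an inactive rhomboid protein. The region lay 618 bases from an end of that gene, which may be its start. The −log10 p there was 28.3 and 34.9 in the double knockouts, 22 in wild type 2 and 14.3 and 21.1 in the Cpt2 knockouts. At an end of F2rl1 (chromosome 13, 95524879 to 95525594), a receptor activated by trypsin-like proteases, it was 24.7 and 35.2. This member had a lower-ranked peak in 5 of the other 6 libraries, at 17.6 and 21.5 in wild type, 21.1 and 19.5 in Cpt2 knockout and 11.1 in Ppara knockout 1. At 633 bases from Hc (chromosome 2, 35069139 to 35069486), which encodes complement component C5, it was 29 and 21.9, with 16.6 in wild type 2 and 27.2 and 20.9 in the Cpt2 knockouts. The double knockout values overlapped those of Cpt2 knockout at Hc and lay above them at Rhbdf1 and F2rl1.

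The members' place was read from the nearest protein-coding genes. Within 1 kb of an end of a protein-coding gene were 56 of 361 (15.5%, 95% Wilson interval 12.1 to 19.6%), inside a gene 181 (50.1%, 45 to 55.3%) and outside genes 124 (34.3%, 29.6 to 39.4%). Over all consensus regions the shares were 26%, 41.8% and 32.3%, and over the 13761 other regions called in both double knockouts 43.9%, 32.7% and 23.4%. Of those others, the 10359 in the members' range of mean percentile had 42.9% within that distance. A listed coding gene start lay within 1 kb of 29 members (8.03%), of 21.4% of all regions and of 38.2% of the others. The median distance to a gene end was 14130 bases for members and 9392 for all regions. Over 50 kb away lay 81 members (22.4%), against 18.9% of all regions and 13.3% of the others. The median width of members was 342 bases, against 381 for all regions and 582 for the others. The Wilson intervals cover counting error only, and regions are not replicates of a genotype.

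Of the 75 members without a peak elsewhere, 12% lay within 1 kb of a gene end (9 regions, interval 6.44 to 21.3%), 50.7% inside genes and 37.3% outside. Among regions chosen by the same rule for the other genotypes, 26.5% of those of Ppara knockout, 7.86% of those of Cpt2 knockout and 21.9% of those of wild type lay within 1 kb. The double knockout share of 15.5% fell between these values.

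**Figure D5:**
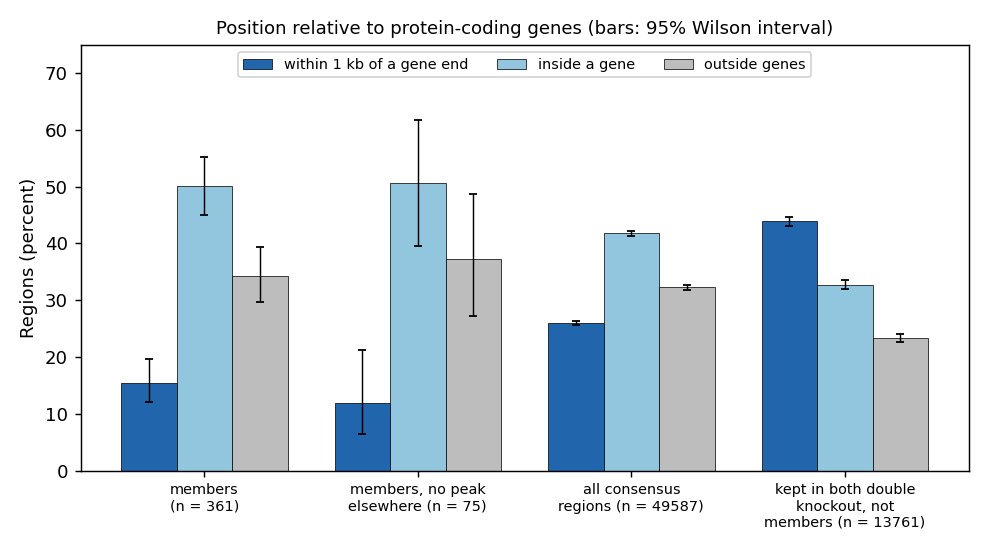
Bars give the percentage of regions within 1 kb of a protein-coding gene end, inside a gene or outside genes for 4 sets, with 95% Wilson intervals. The share within 1 kb is 15.5% for members, 26% for all consensus regions and 43.9% for the other regions called in both double knockouts.

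The 361 members were nearest to 351 different genes, 10 of which had 2 members and none more, so no gene was nearest to 3. Neighbouring members lay a median of 3421970 bases apart, and 15 neighbouring pairs were within 100 kb. The genes with 2 members named here were chosen after their values were seen. Inside Man2a1, a mannosidase of the Golgi, 1 member had no peak elsewhere (25.1 and 19.3) and the other had 20.9 and 30.4, with 15.6 and 21.6 in wild type. Inside Gpc6, a glypican, 1 member had 30.7 and 21.4 in the double knockouts and 14.9 in wild type 1, and the other 25.1 in both double knockouts and no peak elsewhere.

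Gene groups of liver metabolism were read by the nearest gene of each member, beside all consensus regions. Of the 40 Ppara target genes, 1 (Acadm) was nearest to a member, which is 0.277% of members against 0.405% of all regions. The same region was the single one among 21 genes of mitochondrial beta-oxidation and the carnitine shuttle (0.277% against 0.143%). Cpt2 was nearest to no member. In fatty acid and sterol synthesis 1 of 26 genes, Sqle, had a member (0.277% against 0.353%). This region inside Sqle (chromosome 15, 59319873 to 59320107), the squalene epoxidase of cholesterol synthesis, was near the bottom of the ranking, with −log10 p of 14.7 and 12 and no peak elsewhere. It lay 18327 bases from the member inside Washc5, which likewise had no peak elsewhere.

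Fasting and gluconeogenesis genes held 3 members over 19 genes (0.831% against 0.458% of all regions). At Igfbp1 (chromosome 11, 7201692 to 7201957), an insulin-like growth factor binding protein that rises in fasting, the −log10 p was 19.3 and 26.1, with no peak in the other 6 libraries. The region lay inside the gene, 589 bases from its end, and had the low deposited folds of 2.66 and 2.85. Inside Tat (chromosome 8, 109987705 to 109988118), the tyrosine aminotransferase of amino acid breakdown, it was 23 and 18.5, beside 20.5 and 18.1 in wild type and 22.5 and 28.9 in Cpt2 knockout. The double knockout values at Tat overlapped those of both Ppara-intact genotypes, while Ppara knockout had no peak. The third member, inside Ppargc1a, a coactivator of Ppara, was weak in the double knockouts (15.3 and 12.3), with 10.9 and 34.2 in wild type, 24.1 and 30.7 in Cpt2 knockout and 11.5 in Ppara knockout 1. It was chosen for mention after its values were seen.

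Nuclear receptors and hepatic transcription factors held 4 members over 28 genes (1.11% against 0.698%). Inside Rxra (chromosome 2, 27702291 to 27702653), the receptor that pairs with Ppara, the −log10 p was 21.9 and 18.5 in the double knockouts, 21.6 and 27.4 in wild type and 24.2 and 19.9 in Cpt2 knockout. At 29139 bases from Foxa2 (chromosome 2, 148013468 to 148013738), a forkhead factor that opens liver chromatin, it was 20.3 and 16.6, with 19.4 and 18.5 in Cpt2 knockout. The other 2, chosen for mention after their values were seen, were near Cebpa and inside Ppara itself. The region inside Ppara (chromosome 15, 85771303 to 85771660) had 18 and 13.8 in the double knockouts, 20.4 and 34 in wild type, 29.5 and 18.1 in Cpt2 knockout and no peak in Ppara knockout. In the regions at Rxra, Ppara and Cebpa, at least 1 Ppara-intact library had a higher value than both double knockouts. At Foxa2 none did.

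Xenobiotic, antioxidant, immediate early and inflammation genes had 1 member per list. Inside Nr1i2 (chromosome 16, 38273032 to 38273389), the xenobiotic receptor PXR, the −log10 p was 22.1 and 23.8, with 12 and 19.4 in wild type, 20.8 and 23.2 in Cpt2 knockout and 10.2 in Ppara knockout 1. At the start of Nqo1 (chromosome 8, 107403005 to 107403759), whose promoter is printed above, it was 16.7 and 25.7, with 20.8 and 35.8 in wild type and 29.5 and 22 in Cpt2 knockout. At 37369 bases from Ier3 (chromosome 17, 35784011 to 35784344), an immediate early gene, it was 24.1 and 21.6, with 13.1 in Cpt2 knockout 2. At 2010 bases from Crp (chromosome 1, 172701976 to 172702284), an acute phase protein, it was 19.6 and 13.2, with 19.9 and 32.8 in wild type and 24.7 and 18.5 in Cpt2 knockout. Of these 4, the region near Ier3 was the one where both double knockouts exceeded every other library. The lists had 25, 19, 19 and 26 genes, and 0.212%, 0.188%, 0.288% and 0.192% of all regions belonged to them, against 0.277% of members each. No member was nearest to any of 23 genes of the integrated stress response and hepatokines or of 20 cell cycle and regeneration genes, 19 of which the RefSeq table holds. Each of these lists takes 0.165% of all regions, or 82 regions, so a count of 0 among 361 is near that share.

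Markers of liver cell types were checked in the same way. Of the hepatocyte list, Tat, Alb and Cps1 were nearest to a member (0.831% of members against 0.216% of all regions). The region inside Alb (chromosome 5, 90467345 to 90467551) was at 16 in both double knockouts and at 24.6 in Cpt2 knockout 1. The region inside Stab2 (chromosome 10, 86878627 to 86879061), a scavenger receptor of sinusoidal endothelium, was at 14.8 and 14, beside 14 and 12 in wild type and 22.9 and 19.1 in Cpt2 knockout, and was the single member of the 10 endothelial genes (0.277% against 0.111% of all regions). No member was nearest to any of 12 macrophage, 12 stellate, 9 cholangiocyte or 10 lymphocyte genes, which take 0.0302%, 0.0363%, 0.0887% and 0.0121% of all regions. At such shares a count of 0 says nothing about the members. The share of each cell type in the tissue was not measured, and in whole liver a change in cell make-up and a change within cells cannot be told apart.

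At the lower edge of the ranking were members inside Pgap2 (chromosome 7, 102222875 to 102223343), which acts in maturation of GPI anchors, and Spats2l (chromosome 1, 57845107 to 57845559). Their −log10 p was 14.7 and 10.3, and 14.6 and 10.4, against the double knockout cutoffs of 14.6 and 7.77. Pgap2 had lower-ranked peaks in 5 other libraries, up to 26 in Cpt2 knockout 2, and Spats2l in none. The members closest to leaving the set were inside Slc25a25 (chromosome 2, 32437040 to 32437425), a mitochondrial ATP-magnesium carrier, whose peak in Cpt2 knockout 2 (31.8) lay 4 places below the kept list, and inside Vps37b (chromosome 5, 124029592 to 124029982), an ESCRT subunit, whose peak in Ppara knockout 1 (12.7) lay 34 places below the kept list. Just outside were a region 4991 bases from Dnmt3a (chromosome 12, 3919434 to 3919809), a DNA methyltransferase, and one inside Col22a1 (chromosome 15, 71972304 to 71972646). They were left out by Cpt2 knockout 2, 37 places inside its list, and by Ppara knockout 1, 50 places inside.

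In all, 477 regions were called in both double knockouts and in a single other library. Ppara knockout 1 was that library for 181 and Ppara knockout 2 for 150, against 42 and 9 for the wild type libraries and 21 and 74 for the Cpt2 knockouts. Without Ppara knockout 1 the members would number 542. Of the members, 16 lay on chromosome 15, where Ppara is (4.43%, against 4.25% of all regions), and 19 on chromosome 4, where Cpt2 is (5.26% against 6.87%). The highest count was on chromosome 2 (32 members, 8.86% against 7.45%), and the highest share of a chromosome's regions among those with 10 or more members was on chromosome 17, with 26 members (7.2% against 4.47%). Members lay a median of 5207 bases from the next consensus region, close to the 5547 of all regions, and 61 (16.9%) were within 10 kb of a region called in all 8 libraries, against 19.5% of all regions.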

How the data were processed

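The deposited files were a peak list for each of the 8 libraries and a table of consensus regions, of which the first track was used. BWA, MACS2 2.1.0 and the build mm10 are named, per the submitters' processing notes, for DNA from flash-frozen liver. The aligner and caller settings, the handling of duplicates and the Tn5 offset are not given in the sources used here. Each deposited peak has a fold (the ratio of pileup to local background), a −log10 p, a −log10 q and a score, which equals 10 times the −log10 p rounded down for at least 99.99% of peaks. These values are the authors' and were used to rank, filter and describe peaks within a list. The −log10 p was also compared between libraries, at individual regions and with a shared cutoff. The values were not normalised here for this, so such comparisons are descriptive. Read totals were not used here, so depth is unknown.

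Peaks were ranked by −log10 p (ties by fold, chromosome and start) and the strongest kept, as many as the shortest list holds. A region was called where it shared at least 1 base with a kept peak, and several peaks counted by the strongest. Nearest genes came from 21887 protein-coding genes of the RefSeq table on GRCm38.p6, which gives neither exons nor introns; distances are to the gene's span or its ends. The 2 libraries of a genotype were not averaged, except in the mean percentile of the double knockouts, which orders the members. No test was made. The overlap and distance code was tested on simulated data.

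Regions were named by this rule: the 12 highest by mean percentile; the 6 highest within 1 kb of a gene end; the 6 highest without a peak elsewhere; the 2 highest of each gene list; any gene nearest to 3 or more members (there was none); the 2 lowest; and 2 on each side of the threshold. The members and lists were chosen with earlier results of these data known. Alternatives are in the closing section. Computation used Python 3.11.15, NumPy 2.4.6, pandas 2.3.3, SciPy 1.17.1 and matplotlib 3.10.9. One gene's result is not reported here.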

Additional observations from a re-analysis of the deposited data

How the results depend on the processing

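The number of regions called only in double knockout was 361 and stayed within 1.5 times of that with the 15000 or 10000 strongest peaks (329 and 268), with peaks ranked by fold (362), with 50% cover of the region (345) and with 50% overlap of the 2 double knockout peaks (355). The regions were not the same ones: 174, 36, 215, 323 and 355 of them were members. All deposited peaks gave 123 regions, of which 75 were members, a −log10 q of at least 20 gave 43, of which 18 were members, and 1 cutoff of −log10 p for all libraries, chosen after seeing the data, gave 89, of which 75 were members. With 1 library left out the number ran from 370 to 1589, since fewer libraries have to be matched: 1589 without double knockout 1, 1095 without double knockout 2 and 542 without Ppara knockout 1.

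The share within 1 kb of a gene end was 15.5%. It was 10.8% with the 10000 strongest peaks, 10.6% with all deposited peaks and 12% among members without a peak elsewhere (chosen after seeing the data), and 31% at a distance of 5 kb. Leaving out 1 library gave 14.2 to 17.2%. Members without any peak elsewhere numbered 75, with 42 for the 15000 and 8 for the 10000 strongest peaks, 94 with ranking by fold and 72 with 50% cover. The cause of these shifts was not tested, apart from the fewer peaks that shorter lists hold.

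Of the 33 named regions, 26 stayed with the 15000 and 16 with the 10000 strongest peaks, 20 with ranking by fold, 29 with 50% cover, 33 with 50% overlap of the double knockout peaks, 9 with all deposited peaks and 12 with a −log10 q of at least 20. Under the first 6 of these, 8 members stayed: those nearest to Gm7247, Pdgfra, Ahcyl1, Washc5, LOC665918, Mageb18, Gpc6 and Vti1a. With the −log10 q alternative as well, 6 stayed, without those near Mageb18 and Vti1a. No paired analysis was possible because the results come from no test. Motif shares around peak summits were not run, since the sequence of the regions was not used here. With 2 libraries a genotype and peak calls in place of read counts, a region without a peak may still be open below the caller's threshold, and no error can be given for a single region.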

Other observations

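With all deposited peaks, 48 regions that are not members were also called in both double knockouts and in none of the other 6 libraries. They fell below the kept list of double knockout 1. The strongest in double knockout 2 lay 38488 bases from Tgfb2, a transforming growth factor (chromosome 1, 186583958 to 186584299), with a −log10 p of 13.5 and 40.4 in the double knockouts. The next lay 373394 bases from Iqcm (chromosome 8, 76357902 to 76358226), with 14 and 38.9, and 15380 bases from Pik3c2a, a phosphoinositide kinase (chromosome 7, 116458845 to 116459201), with 10.8 and 28.2. These 3 were chosen after their values were seen, and in each the 2 double knockout libraries differed widely.

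One pair of members showed no peak in any other library at both sites: those inside Sqle and Washc5, 18327 bases apart. Of the 15 neighbouring pairs within 100 kb, it was the single such pair. Among all members, 75 (20.8%) had no peak elsewhere, and whether such members lie near each other was not tested. A further member overlapped the hairpin of Mir5625 beside Slc35f6, at the weak end of the ranking.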
